A study of Mus musculus with 250 samples.

Results

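The respiratory chain of the inner mitochondrial membrane passes electrons from NADH and succinate to oxygen and uses the energy to make ATP. Complex I oxidises NADH, complex II oxidises succinate, complex III passes the electrons to cytochrome c, complex IV reduces oxygen, and complex V is the ATP synthase. Most of the subunits are encoded in the nucleus, made in the cytosol and imported, while a few core subunits of complexes I, III, IV and V are encoded by mitochondrial DNA. In the epidermis, basal keratinocytes contain active mitochondria, and these are removed as the cells form the cornified layer.

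The genes described here stand for the nuclear-encoded subunits of complexes I to V. They were chosen by symbol alone, as the rows of the count table named Nduf with a, b, c, s or v and a digit, Sdha to Sdhd, Uqcr, Cox4 to Cox8 or Atp5. Rows with "-ps" in the symbol (7) and Ndufa4l2, an Ndufa4 relative known as a hypoxia-induced gene, were left out. This gave 82 of the 27003 rows, of which 38 belong to complex I, 4 to complex II, 8 to complex III, 15 to complex IV and 17 to complex V. Of these, 4 (Ndufa11b, Ndufb4c and Ndufs6b in complex I, Cox6c2 in complex IV) are processed pseudogenes in the annotation, which the rule on symbols let through. Ndufa4, first assigned to complex I, was counted with complex IV, where it is now placed.

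Expression was measured by Smart-Seq2, full-length single-cell RNA sequencing without molecular identifiers, in 250 epidermal cells from mouse tail skin. All cells came from Lrig1CreER/Rosa-TdTomato mice, in which Cre driven by Lrig1, a stem cell gene of the upper hair follicle, switches on a tdTomato reporter. The labels call them Lrig1 GL Sca1+ cells, where GL is not spelled out, and Sca1 is a surface protein of the upper follicle and the epidermis between follicles. The time label is 8w_pw1 for every cell, also not spelled out. The sort on Sca1 was meant to enrich upper follicle cells. They came from the wound bed (30 cells in batch 1 and 55 in batch 2), from a distal memory region (32 and 49) and from a control region (28 and 56). The series title is about memory in tissue held by progenitors at a distance from an injury. Animals' ages and numbers are not given in the labels. No animal is named, so each region counts as 1 sample, no test was run and no value has an error between animals.

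Each region of each batch was on 1 plate by the labels, so region and plate cannot be told apart within a batch. Cells held between 3857 and 3119120 reads each, with a median of 49298, and the summed reads of a plate lay between 1751116 and 10671470. In the distal memory plate of batch 1, 4 cells held 72.8% of the reads. Keratinocyte marker genes had reads in 85 of 85 wound bed cells, 80 of 81 distal memory cells and 83 of 84 control cells. The summed markers of immune cells reached at most 19.8 CPM in a plate, of endothelial cells 8.45, of melanocytes 1.59 and of fibroblasts 91.3 CPM. Those of muscle reached 27.4 CPM, in distal memory batch 2, with reads in 4 of 85 wound bed, 9 of 81 distal memory and 5 of 84 control cells. Rows were present for 2 of 4 melanocyte, 4 of 5 fibroblast and 3 of 5 muscle markers. Suprabasal markers summed to 33229.7 and 25605 CPM in wound bed plates, 19726 and 9836 CPM in distal memory plates and 14951 and 13190.0 CPM in control plates. Upper hair follicle markers summed to 2338 and 12792, 4263 and 6864, and 16573 and 28483 CPM in wound bed, distal memory and control plates. Cycling markers summed to 766 and 935 CPM in wound bed plates, 1485 and 263 CPM in distal memory plates and 536 and 182 CPM in control plates. Sebaceous markers reached 3084 CPM in control batch 1, with 318 to 1284 CPM elsewhere, and mitochondrially encoded reads took 23.5 to 41.8% of a plate, most in distal memory batch 1. These values differed between regions or plates, and their part in the values below was not tested.

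Promoters of many of these genes hold sites for NRF1, GABP (also named NRF2), YY1 and the estrogen-related receptors (ERR), the factors usually credited with the joint control of respiratory genes. RefSeq promoter sequences of build GRCm38.p6, from 250 bases before to 50 after each start, matched 66 of the 82 genes. GCGCATGCG, the NRF1 motif, was found on either strand in 8 of the 66 promoters (12.1%), against 1.95% of the 27025 genes in the table. AAGATGGC, the YY1 motif, was in 10 (15.2%) against 3.19%, CCGGAAGT, the GABP motif, in 5 (7.58%) against 4.31%, and TCAAGGTCA, the ERR motif, in 2 (3.03%) against 0.466%. At least 1 of these 4 motifs was in 24 members (36.4%), against 9.39% of all genes. Of the 10 with the YY1 motif, 7 encode complex I subunits (of 31 promoters, 22.6%) and 3 complex V subunits (of 15, 20%). A match is a description of the letters, not evidence of binding.

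The promoters below show each motif once, in capitals within bases upstream of the start, written 5′ to 3′ along the gene's strand. They were picked because the genes are described below or are among the highest of their complex.
Ndufa11 promoter, chr17:56717672-56717741, + strand: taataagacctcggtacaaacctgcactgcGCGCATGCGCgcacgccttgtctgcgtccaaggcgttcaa
Uqcrh promoter, chr4:116075071-116075111, - strand: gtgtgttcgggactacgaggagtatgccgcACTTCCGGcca
Atp5j promoter, chr16:84835027-84835094, - strand: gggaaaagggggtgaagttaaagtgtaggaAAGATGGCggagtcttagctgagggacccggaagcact
Atp5g3 promoter, chr2:73911340-73911408, - strand: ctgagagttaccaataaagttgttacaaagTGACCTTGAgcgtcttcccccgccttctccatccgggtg
Ndufa11 holds the NRF1 motif on both strands, overlapping, which gives the unbroken run of capitals, and its first base lies 60 bases before the start. Uqcrh holds the GABP motif on the reverse strand, 11 bases before the start. Atp5j, shown for 1 of its RefSeq starts, holds the YY1 motif 88 bases before it, and Atp5g3 holds the ERR motif on the reverse strand, 52 bases before the start.

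Reads of the members were found throughout the cells. All but 1 of the 250 cells had a read of at least 1 member, the exception being a control cell of batch 2. A median of 50 and 49 members was detected per wound bed cell in batches 1 and 2, against 55 and 53 per distal memory cell and 41.5 and 55 per control cell. Single members had reads in a median of 67.2% of cells, where genes with any read had a median of 2.4%. Of the 82, 58 had reads in at least 50% of cells and 28 in at least 75%. By complex, the median was 58.4% for complex I, 39% for complex II, 71% for complex III, 80.4% for complex IV and 83.2% for complex V.

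Levels between members were compared per length, as TPM from plate sums and the union of annotated exons (GENCODE M21, GRCm38), and are given as the mean ± SD over the 6 plates. Since plates also differ in region and batch, this SD is a spread over plates and not an error between replicates. The members span 231 to 8086 exonic bases. TPM ranked the members much as detection did (Spearman's rho 0.78 across 82 genes, which share libraries and are not independent).

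In complex I the highest level was that of Ndufb6, an accessory subunit of the membrane arm, at 1669.8 ± 894 TPM. Ndufa1 (862 ± 343 TPM) and Ndufc2 (375 ± 155 TPM), also accessory subunits, followed, and the complex had a median of 83.04 TPM. The core subunits that carry the flavin and the iron-sulphur clusters were spread over the range below these. Ndufv2, of the NADH-oxidising module, stood at 284 ± 143 TPM, against 28.9 ± 16.8 TPM for Ndufv1, its partner that binds NADH and the flavin. Ndufs8 and Ndufs7, iron-sulphur proteins on the way to ubiquinone, stood at 98.2 ± 46.7 TPM and 81.9 ± 59.6 TPM. Ndufs3, next to them in the peripheral arm, stood at 46.1 ± 28.2 TPM. Ndufs1, the largest core subunit, was the lowest of the core members named here at 10.4 ± 4.90 TPM over the longest exon union of all members.

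Complex II, whose 4 subunits are all nuclear, was the lowest complex, with a median of 69.5 TPM. Sdhd, a membrane anchor, stood at 148 ± 81.7 TPM, the iron-sulphur subunit Sdhb at 83.4 ± 14.2 TPM, the flavoprotein Sdha at 55.6 ± 31.99 TPM, and the other anchor, Sdhc, at 11.5 ± 4.75 TPM. The spread of Sdhd overlapped the levels of Sdhb and Sdha, so these 3 are not ordered beyond the spread over plates, while the highest plate of Sdhc (16.2 TPM) lay below the lowest plates of the others.

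Complex III had a median of 217 TPM and the highest single member of the whole set, Uqcrb, a small subunit, at 2637 ± 794 TPM and with reads in 90.4% of the 250 cells (exact 95% interval 86.1 to 93.8%). Uqcrh, the hinge subunit that helps to bind cytochrome c1, followed at 436 ± 170.3 TPM and was detected in 94.4% of cells, and Uqcr11 stood at 367 ± 151 TPM. The Rieske iron-sulphur protein Uqcrfs1 (128 ± 79.3 TPM) and the core proteins Uqcrc2 (65.7 ± 37.2 TPM) and Uqcrc1 (51.2 ± 12.7 TPM) were all lower than these small subunits on average, with overlapping spreads among themselves.

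Complex IV had a median of 180.0 TPM. Ndufa4 led at 1389 ± 422 TPM and had reads in 98.4% of the 250 cells (exact 95% interval 95.95 to 99.6%), the most of any member. Cox4i1, a subunit that regulates the enzyme, stood at 938 ± 597 TPM and Cox7b at 611 ± 245 TPM. With the longest transcript in place of the exon union, or with cells weighted equally, Cox4i1 stood above Ndufa4, so the order of the pair is open to the method. Cox6c, Cox5a, Cox5b and Cox7c, which surround the mitochondrially encoded core, stood at 147 ± 49.3 TPM, 91.8 ± 53.7 TPM, 158 ± 48.6 TPM and 72.5 ± 33.5 TPM.

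The tissue-specific isoforms of complex IV were nearly silent beside their ubiquitous partners. Cox7a1, the heart and muscle isoform, had no read in any of the 250 cells, while Cox7a2, its widely expressed partner, had 293 ± 93.2 TPM and reads in 85.2% of cells, and Cox7a2l, which helps to build supercomplexes, had 180.0 ± 59.5 TPM. For Cox7a1, 0 of 250 cells allows a share of up to 1.2% of cells with a read by the limit of 3 counts, and the exact 95% upper bound is 1.46%. Cox6b2, the testis isoform, had reads in 2 cells, against 87.2% of cells for Cox6b1. Cox6c2, a processed pseudogene and not an isoform, had reads in 11.2% of cells and 16.5 ± 12.2 TPM. Cox4i1, Cox6a1 (216 ± 100.7 TPM), Cox7b and Cox8a (432 ± 199.9 TPM) were the rows present for their isoform sets; Cox4i2, Cox6a2, Cox7b2, Cox8b and Cox8c were not analysed here. In complex I, the processed pseudogenes Ndufb4c, Ndufs6b and Ndufa11b had reads in 7, 6 and 2 cells. These rows and Cox6c2 have a close copy under another member's name, so reads of the pairs could have been split by the counting.

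Complex V had a median of 165 TPM. Atp5g3 (619.9 ± 219 TPM), one of the genes for the c subunit of the rotor ring, Atp5j (558 ± 220.3 TPM), the coupling factor of the peripheral stalk, and Atp5c1 (501 ± 208 TPM), the gamma subunit of the rotor shaft, were highest, with overlapping spreads. By longest transcript Atp5j came first. The genes Atp5g1, Atp5g2 and Atp5g3 encode the same mature c subunit, and Atp5g3 stood far above Atp5g1 (34.5 ± 14.3 TPM) and Atp5g2 (11.1 ± 1.96 TPM), with a lowest plate of 245 TPM against highest plates of 51.6 and 14.6 TPM. The catalytic head subunits were at 329 ± 149 TPM for Atp5a1 (alpha) and 166 ± 57.4 TPM for Atp5b (beta). By longest transcript they were at 332 and 316 TPM, so the gap between them depends on the length used. Atp5b was the member of complex V with reads in the most cells, 93.6%.

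**Figure D1:**
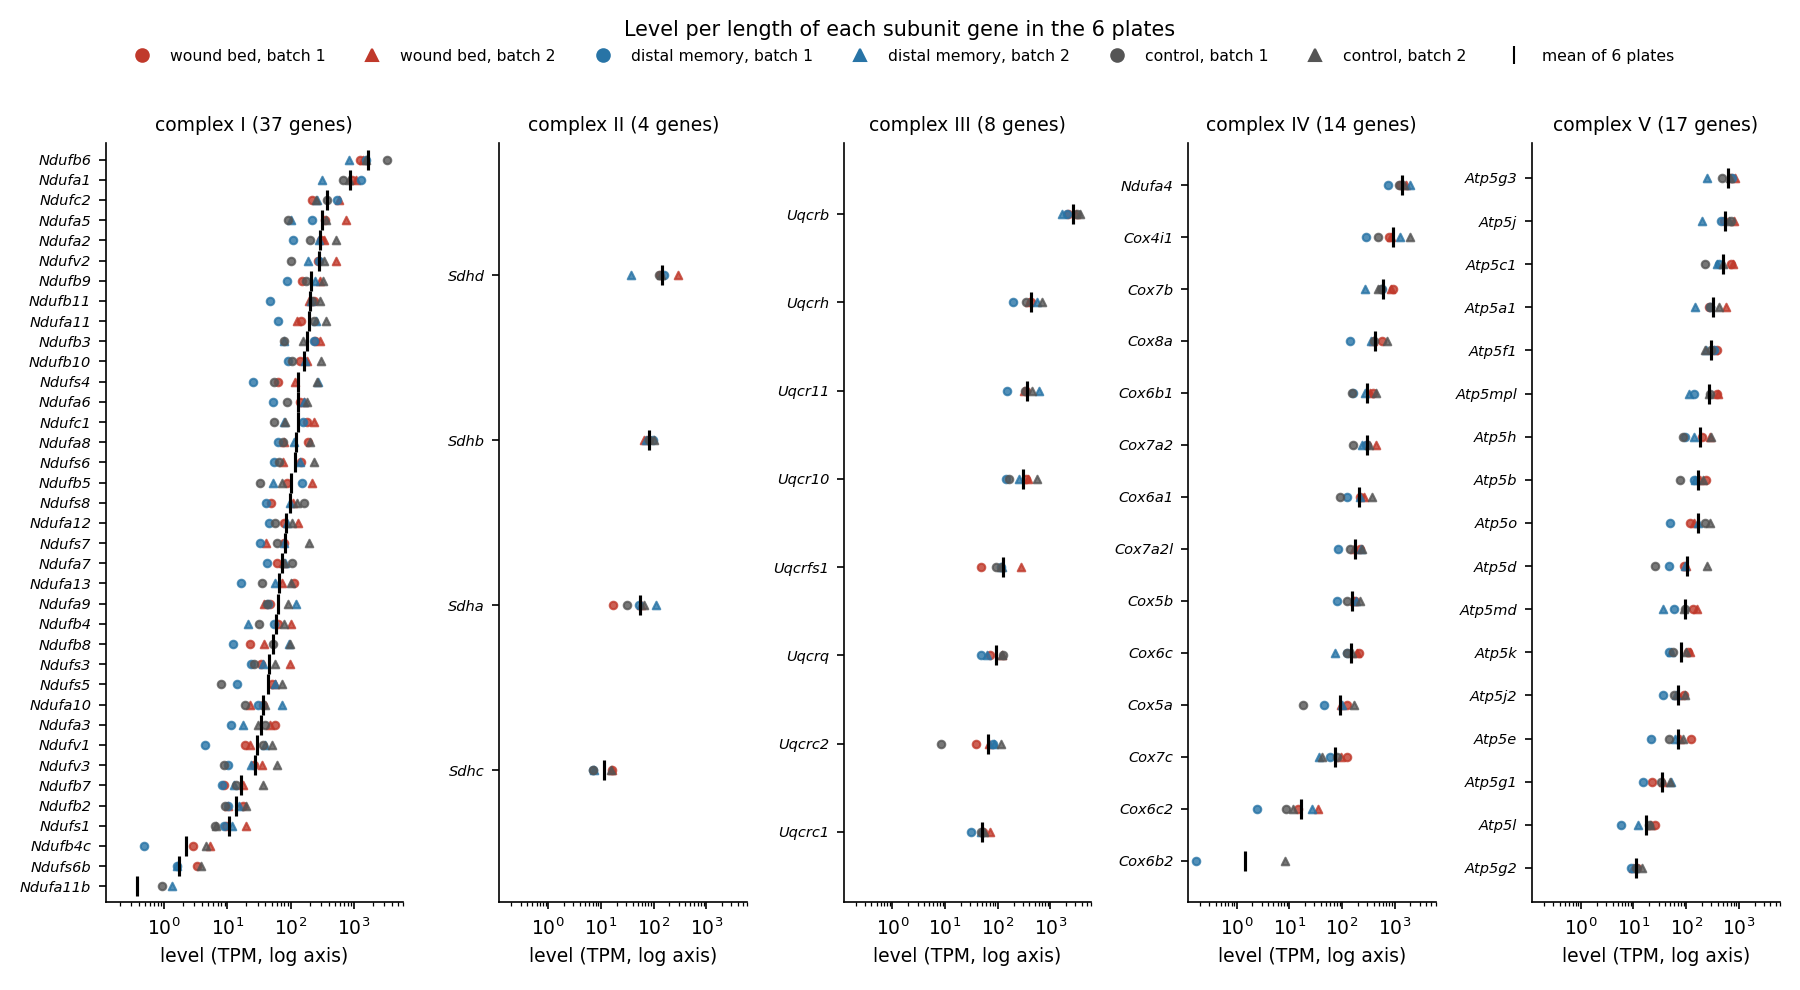
Level per length of the members in the 6 plates, as TPM on a log axis, by complex and sorted by the mean. Colours stand for regions (wound bed, distal memory, control), circles and triangles for batches 1 and 2, and black ticks for the mean of the 6 plates; plates at 0 cannot be drawn on the log axis, and Cox7a1, at 0 in every plate, and 1 member not reported here are left out. Uqcrb leads with a mean of 2637 TPM, and single members differ between plates by several-fold.

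The share of a cell's reads that came from these genes was small and varied from cell to cell. Over non-mitochondrial reads, the 82 members took a median of 1.97% and 2.29% per wound bed cell in batches 1 and 2, 1.75% and 2.08% per distal memory cell and 1.75% and 2.69% per control cell. The cells of each plate reached from 0.982 to 5.70% and 1.54 to 5.63% in wound bed plates, from 0.935 to 3.603% and 0.218 to 5.13% in distal memory plates, and from 0.433 to 4.43% and 0 to 7.94% in control plates. The cells of the 3 regions overlapped widely in both batches. Batch 2 medians were above batch 1 medians in every region.

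**Figure D2:**
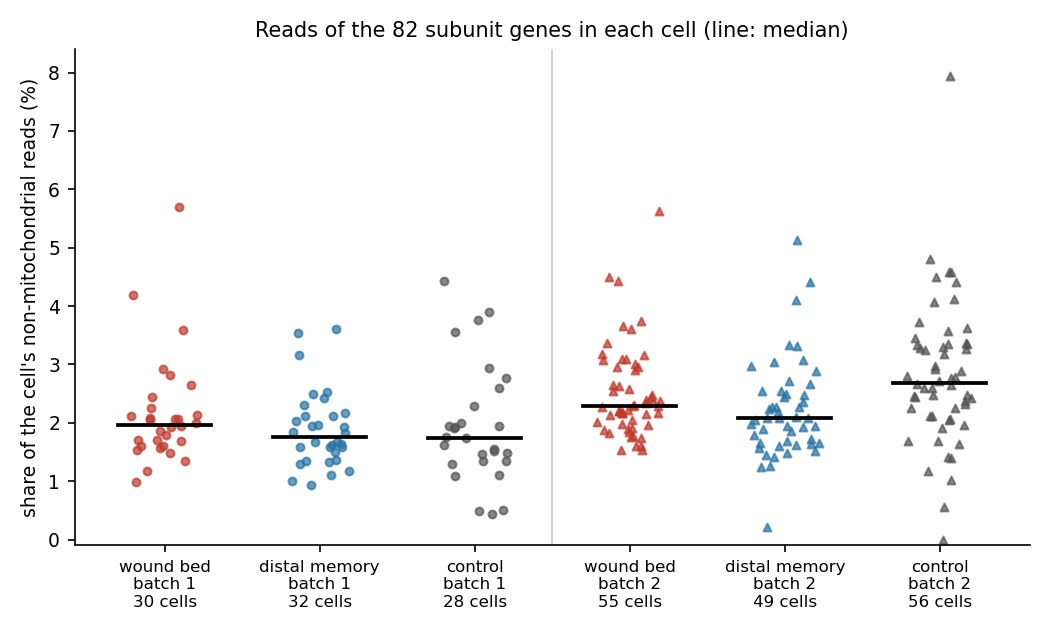
Share of each cell's non-mitochondrial reads (%) that fell on the 82 subunit genes, by region and batch. Each point is 1 cell and each line is the plate median, from 1.75% in control batch 1 to 2.69% in control batch 2; the clouds of the regions overlap.

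Comparisons between regions used counts summed per plate, scaled by TMM and given as CPM, the count relative to the scaled library total, with a log2 ratio of CPM plus 1 within each batch. Values are given in the order batch 1, batch 2. Poisson intervals cover counting error only, because PCR copies of a molecule cannot be told from separate molecules here. Single cells weighed heavily in the plate sums. In the 443 combinations of member and plate with at least 50 reads, the cell with the most reads held a median of 19.6% of them and up to 81.8%, and in 31 it held more than 50%.

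Summed over all 82 members, levels were 13423 and 15111 CPM in wound bed cells, 14346 and 11621 CPM in distal memory cells and 16965 and 15645 CPM in control cells. The log2 ratios were -0.34 and -0.05 for wound bed over control, -0.24 and -0.43 for distal memory over control and 0.10 and -0.38 for distal memory over wound bed. Both distal memory plates lay below the control plate of their batch, and this held with total counts or DESeq2 size factors as the scaling. The median share of non-mitochondrial reads per cell was 1.75% in both distal memory and control cells in batch 1. In batch 2 it was 2.08% in distal memory and 2.69% in control cells. Wound bed plates also lay below control in both batches under TMM, but batch 1 lay above control under total counts (0.05) and batch 2 under DESeq2 size factors (0.03). The distal memory plates lay above the wound bed in batch 1 and below it in batch 2 under TMM, while batch 1 lay below it under total counts (-0.45) and DESeq2 size factors (-0.06).

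Complex V took the most subunit reads in every plate but 1. Its share was 37.7 and 36.3% in wound bed plates, 37.7 and 24.4% in distal memory plates and 33.98 and 30.4% in control plates. In the distal memory plate of batch 2, complexes IV (30.4%) and I (27.4%) took more. Complex II took at most 3.25% in any plate.

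Complex I subunits summed to 3125 and 4027 CPM in wound bed cells, 3958 and 3187 CPM in distal memory cells and 4567 and 4144 CPM in control cells. Control was highest in both batches, with 30.2% of the control reads of batch 1 from 1 cell. Per cell, complex I took a median of 0.430% and 0.617% of non-mitochondrial reads in wound bed cells, 0.488% and 0.615% in distal memory cells and 0.400% and 0.711% in control cells, where control was lowest in batch 1. Of the control sum in batch 1, Ndufb6 alone made 35.2%, and without it the ratios were -0.12 and -0.03 for wound bed over control and 0.13 and -0.34 for distal memory over control, so the direction of the second then differed between batches.

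Complex II subunits summed to 225 and 349.9 CPM in wound bed cells, 466 and 348 CPM in distal memory cells and 355 and 322 CPM in control cells. Wound bed was lowest in batch 1 but not in batch 2. In distal memory batch 2, Sdha held 66.02% of the reads of the complex, and without Sdha the ratio of distal memory over wound bed was 0.71 and -1.05.

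Complex III subunits summed to 1629 and 2048 CPM in wound bed cells, 1987 and 1720.1 CPM in distal memory cells and 2935 and 2528 CPM in control cells. Both control plates lay above all 4 plates of the other regions under TMM. As a share of all reads, wound bed batch 2 (0.234%) lay just above control batch 1 (0.231%). Per cell, complex III took medians of 0.255% and 0.271% of non-mitochondrial reads in wound bed and 0.196% and 0.254% in distal memory cells. Control cells had 0.261% and 0.413%, highest in both batches but close to the wound bed in batch 1. The log2 ratios of the sums were -0.85 and -0.30 for wound bed over control and -0.56 and -0.56 for distal memory over control. Uqcrb held 43.4 to 67.8% of the reads of the complex, and without it the ratios kept their sign, at -0.39 and -0.28 for wound bed and -0.42 and -0.12 for distal memory over control. Without cells in which predicted genes took over 5% of the reads, the distal memory ratios were 0.09 and -0.02, from 5 of the 28 control cells in batch 1 and 33 of the 49 distal memory cells in batch 2. Predicted genes took 19.5% of the non-mitochondrial reads of distal memory batch 2 and 13.7% of those of control batch 1. This setting was chosen after seeing the data.

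Complex IV subunits summed to 3383 and 3201 CPM in wound bed cells, 2523 and 3533 CPM in distal memory cells and 3342 and 3893 CPM in control cells. The control plate was highest in batch 2 and the wound bed plate in batch 1, though by little. In distal memory batch 2, 3577 of 4902 Ndufa4 reads came from 1 cell. Without Ndufa4 the ratios were 0.25 and -0.42 for wound bed over control and -0.24 and -0.46 for distal memory over control.

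Complex V subunits summed to 5062 and 5486 CPM in wound bed cells, 5412 and 2833 CPM in distal memory cells and 5765 and 4758 CPM in control cells. The distal memory plate of batch 2 stood apart, with a log2 ratio of -0.75 to control and -0.95 to the wound bed, while the batch 1 ratios were -0.09 and 0.10. No single cell held more than 6.87% of the complex V reads of that plate. Per cell, complex V took a median of 0.690% and 0.835% of non-mitochondrial reads in wound bed cells, 0.618% and 0.592% in distal memory cells and 0.524% and 0.775% in control cells. The low value of the summed level was thus seen in batch 2 only.

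**Figure D3:**
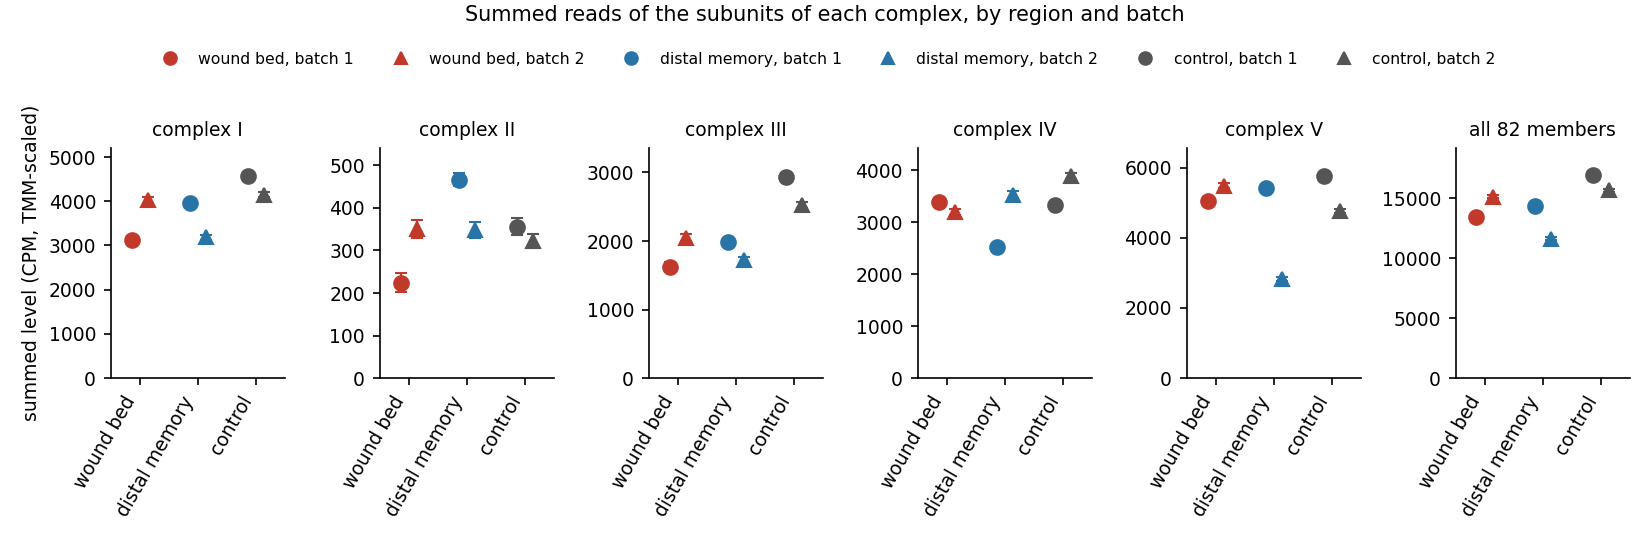
Summed level of the subunits of each complex and of all 82 members (CPM after TMM scaling, axes from 0), with wound bed, distal memory and control from left to right. Circles are batch 1 and triangles batch 2; bars are exact Poisson 95% intervals and cover counting error only. Control lies above the other plates for complex III (2935 and 2528 CPM), and the distal memory plate of batch 2 lies lowest for complex V (2833 CPM).

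Gene by gene, a member entered a pair of regions if, in each batch, its reads were found in 10% or more of the cells of either region, which 77 of the 82 passed in each pair. The other 5 were Cox7a1, Cox6b2, Ndufa11b, Ndufs6b and Ndufb4c. The size rule asked for a log2 ratio of at least 1 in size, a 2-fold difference, in the same direction in both batches.

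Between the wound bed and control, 2 of the 77 members were higher by this rule and 5 lower, all in complex I. Over all 5776 genes considered, 7.83% met the rule as higher and 8.24% as lower, against 2.60% and 6.49% of the members. Among the 778 genes with reads in at least 50% of cells, 2.44% were higher and 3.34% lower, and of the 58 members detected that widely 2 were higher and 2 lower (3.45% each). The widely detected set was added after seeing the data. The median log2 ratios of the 77 members were -0.02 and -0.22. Those of all genes were 0.03 and -0.03, and those of the widely detected genes 0.01 and 0.08. In both batches 15 members (19.5%) were higher and 24 (31.2%) lower, where 27.3% of all genes were higher in both and 27.4% lower. Among the widely detected genes, 31.2% were higher in both and 26.9% lower. Of the 35 complex I members, 14 were lower in both batches and 7 higher; of the 17 complex V members, 3 and 2.

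Ndufv1 had 24.3 and 26.3 CPM in wound bed cells and 69.7 and 60.01 CPM in control cells, with log2 ratios of -1.48 and -1.16. Distal memory plates were at 8.06 and 53.4 CPM, below the wound bed in batch 1 and near control in batch 2. Without the control cell of batch 1 with the most Ndufv1 reads, the batch 1 ratio was -0.63, and without cells rich in predicted genes it was 1.19, from 5 control cells.

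Ndufb8, Ndufa11 and Ndufb7, also lower, are accessory subunits of the membrane arm. Ndufb8, whose promoter holds the YY1 motif, had 34.8 and 52.5 CPM in wound bed cells and 120.2 and 140.2 CPM in control cells, with log2 ratios of -1.76 and -1.40, and no single cell ended this difference when left out. Ndufa11, whose promoter with the NRF1 motif is shown above, had 77.4 and 60.4 CPM in wound bed cells and 180.0 and 178 CPM in control cells (-1.21 and -1.54). In neither of these genes did a wound bed plate reach a control plate. Ndufb7 had 19.4 and 35.6 CPM in wound bed cells and 44.8 and 74.6 CPM in control cells (-1.17 and -1.05), close to the limit, and 10 of 169 single cells ended its call when left out. Leaving out 1 control cell of batch 1 gave -0.86 in that batch for Ndufa11, and leaving out 1 of batch 2 gave -0.73 there for Ndufb7.

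Ndufc1, an accessory subunit of the membrane arm, and Ndufa5, one of the peripheral arm, were higher. Ndufc1 had 134 and 156 CPM in wound bed cells and 58.1 and 54.8 CPM in control cells, with log2 ratios of 1.19 and 1.496. Its reads were found in 74.1% of wound bed cells (63.5 to 83.02%), 64.2% of distal memory cells (52.8 to 74.6%) and 59.5% of control cells (48.3 to 70.1%). Ndufa5 had 179.7 and 344 CPM in wound bed cells and 68.3 and 168 CPM in control cells (1.38 and 1.03), and its wound bed plate of batch 1 lay close to the control plate of batch 2. With cells weighted equally, the Ndufc1 ratio of batch 1 was -0.15. Leaving out 1 wound bed cell gave 0.99 for Ndufc1 in batch 1 and 0.93 for Ndufa5 in batch 2, and 14 of 169 single cells ended the Ndufa5 call.

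Among the core members that did not meet the rule, Ndufs8 and Ndufs7 were lower in both batches, but by much in only 1 batch each. Ndufs8 had 31.5 and 63.1 CPM in wound bed cells and 151 and 73.4 CPM in control cells (-2.22 and -0.22), and Ndufs7 66.4 and 31.4 CPM and 75.1 and 152 CPM (-0.18 and -2.24). Ndufs1 (0.04 and 1.52) and Ndufv2 (0.91 and 0.59) were higher in both, and Ndufs3 (-0.20 and 0.75) differed in direction. Thus 3 of the 6 core members named here were lower in the wound bed in both batches.

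Outside complex I, no member met the rule between the wound bed and control. Complex III had no member higher in both batches and 4 of 8 lower in both. Uqcrb had 909.7 and 1175 CPM in wound bed cells and 1990.3 and 1467 CPM in control cells (-1.13 and -0.32). Uqcrfs1 (-1.48 and 1.24) and Uqcrc2 (1.58 and -0.77) had opposite signs in the 2 batches. In complex IV, 5 of 13 members (38.5%), the pseudogene Cox6c2 among them, were higher in both batches and 1 lower. Of all genes 27.3% were higher in both, and of the widely detected ones 31.2%. Cox7b had 554 and 461 CPM in wound bed cells and 480.0 and 262 CPM in control cells (0.21 and 0.81), and Cox4i1 594 and 592 CPM and 538 and 1352 CPM (0.14 and -1.19). In complex V, Atp5c1 had 662 and 654 CPM and 306 and 426 CPM in wound bed and control cells (1.11 and 0.62) and Atp5b 492 and 341 CPM and 229 and 402 CPM, which put Atp5b above control in batch 1 and below it in batch 2. Atp5a1 had log2 ratios of -0.63 and 0.44. Atp5o, which joins the head to the stalk, came nearest to the rule on the low side, with 114 and 124 CPM in wound bed cells and 328 and 247 CPM in control cells (-1.51 and -0.99); it was singled out after its values were seen.

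Between distal memory and control cells, no member was higher by the size rule and 1 was lower. The background over 6356 genes was 8.07% higher and 6.09% lower, and over the 778 widely detected genes 0.8997% higher and 3.21% lower. Of the 77 members, 38 (49.4%) were lower in both batches and 8 (10.4%) higher in both. Of all genes considered, 23.9% were lower in both and 26.7% higher. Among the widely detected genes, 32.1% were lower in both, and 29 of the 58 members detected that widely were. The median log2 ratios of the members were -0.30 and -0.44, against 0.23 and -0.07 for all genes and -0.12 and -0.22 for the widely detected ones. The members' medians were negative in both batches under each scaling tried.

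By complex, members lower in both batches were 17 of 35 in complex I, 1 of 4 in complex II, 5 of 8 in complex III, 5 of 13 in complex IV and 10 of 17 in complex V. In complex III, Uqcrb had 1281 and 746 CPM in distal memory cells and 1990.3 and 1467 CPM in control cells (-0.64 and -0.97), although 1 cell held 57.1 and 56.1% of its reads in the distal memory plates. Uqcrq, a small subunit, had 61.1 and 59.4 CPM and 164 and 100.2 CPM in distal memory and control cells (-1.41 and -0.75). Uqcrc2 stood at 144 and 110.0 CPM in distal memory cells and 15.6 and 131 CPM in control cells, so its batch 1 ratio of 3.13 came with a control plate that was low beside the other one.

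In complex V, Atp5mpl, a small subunit of the membrane part, came nearest to the rule. Atp5mpl had 122 and 70.4 CPM in distal memory cells and 243 and 151 CPM in control cells (-0.99 and -1.09). Atp5md, another small membrane subunit, had 113 and 51.5 CPM and 185 and 111 CPM in distal memory and control cells (-0.71 and -1.09). Atp5j had 992 and 314 CPM in distal memory cells and 1627 and 920.2 CPM in control cells (-0.71 and -1.55). The c-subunit genes differed among themselves: Atp5g3 ratios were 0.62 and -1.31, those of Atp5g1 -1.101 and 0.24 and those of Atp5g2 -0.31 and -0.26. The alpha and beta subunits, Atp5a1 (-0.07 and -1.35) and Atp5b (0.89 and -0.35), were lower in batch 2, while in batch 1 Atp5b was higher and Atp5a1 near control. Atp5mpl, Atp5md and Uqcrq were picked after their values were seen.

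In complex IV, Cox8a had 62.001 and 110.3 CPM in distal memory cells and 178 and 199.6 CPM in control cells (-1.505 and -0.85), and Cox4i1 310.3 and 996 CPM and 538 and 1352 CPM (-0.79 and -0.44). Cox5a (1.26 and -0.59) was higher in batch 1 and lower in batch 2, and Cox6c had 318 and 135 CPM in distal memory cells and 319 and 247 CPM in control cells, a batch 2 ratio of -0.87. In complex II, Sdha stood at 153 and 229.6 CPM in distal memory cells and 94.1 and 122 CPM in control cells (0.69 and 0.90). However, 664 of its 812 distal memory reads in batch 2 came from 1 cell. Reads of Sdha were found in 33 of 81 distal memory cells and 37 of 84 control cells. Sdhd (0.31 and -1.65) was low in batch 2 alone.

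Between distal memory and wound bed cells, 2 members were higher by the rule, Sdha among them, and 1 lower, Ndufa3. The background over 6285 genes was 9.59% higher and 5.28% lower, and over the widely detected genes 2.57% and 2.31%. The members' medians were -0.25 and -0.14, against 0.25 and -0.02 for all genes and -0.10 and -0.35 for the widely detected ones. In batch 2 the members' median thus lay above that of the widely detected genes. Of the members, 25 (32.5%) were lower in both batches and 9 (11.7%) higher. Of all genes 21.4% were lower in both and 27.4% higher, and of the widely detected ones 28.9% and 14.3%.

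Sdha had 153 (144 to 162) and 229.6 (214 to 246) CPM in distal memory cells and 33.7 (25.8 to 43.3) and 104 (92.9 to 115) CPM in wound bed cells (exact Poisson 95% intervals in brackets), with log2 ratios of 2.15 and 1.14. Of its distal memory reads in batch 2, 664 of 812 came from 1 cell, and without that cell the batch 2 ratio was -1.15, the opposite sign. In batch 1, 561 of 1157 reads came from 1 cell as well. Reads were found in 33 of 81 distal memory cells, 26 of 85 cells from the wound bed and 37 of 84 from control.

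Ndufa3, an accessory subunit of the membrane arm, had 8.33 (6.40 to 10.7) and 9.05 (6.19 to 12.8) CPM in distal memory cells and 28.8 (21.5 to 37.7) and 21.4 (16.7 to 27.04) CPM in wound bed cells, with log2 ratios of -1.67 and -1.16. Both distal memory plates were below all other plates. Its level was low, and with a pseudocount of 5 CPM the batch 2 ratio was -0.91. Leaving out any single cell did not end this difference. Reads of Ndufa3 were found in 29 of 81 distal memory cells, 43 of 85 cells from the wound bed and 35 of 84 from control.

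**Figure D4:**
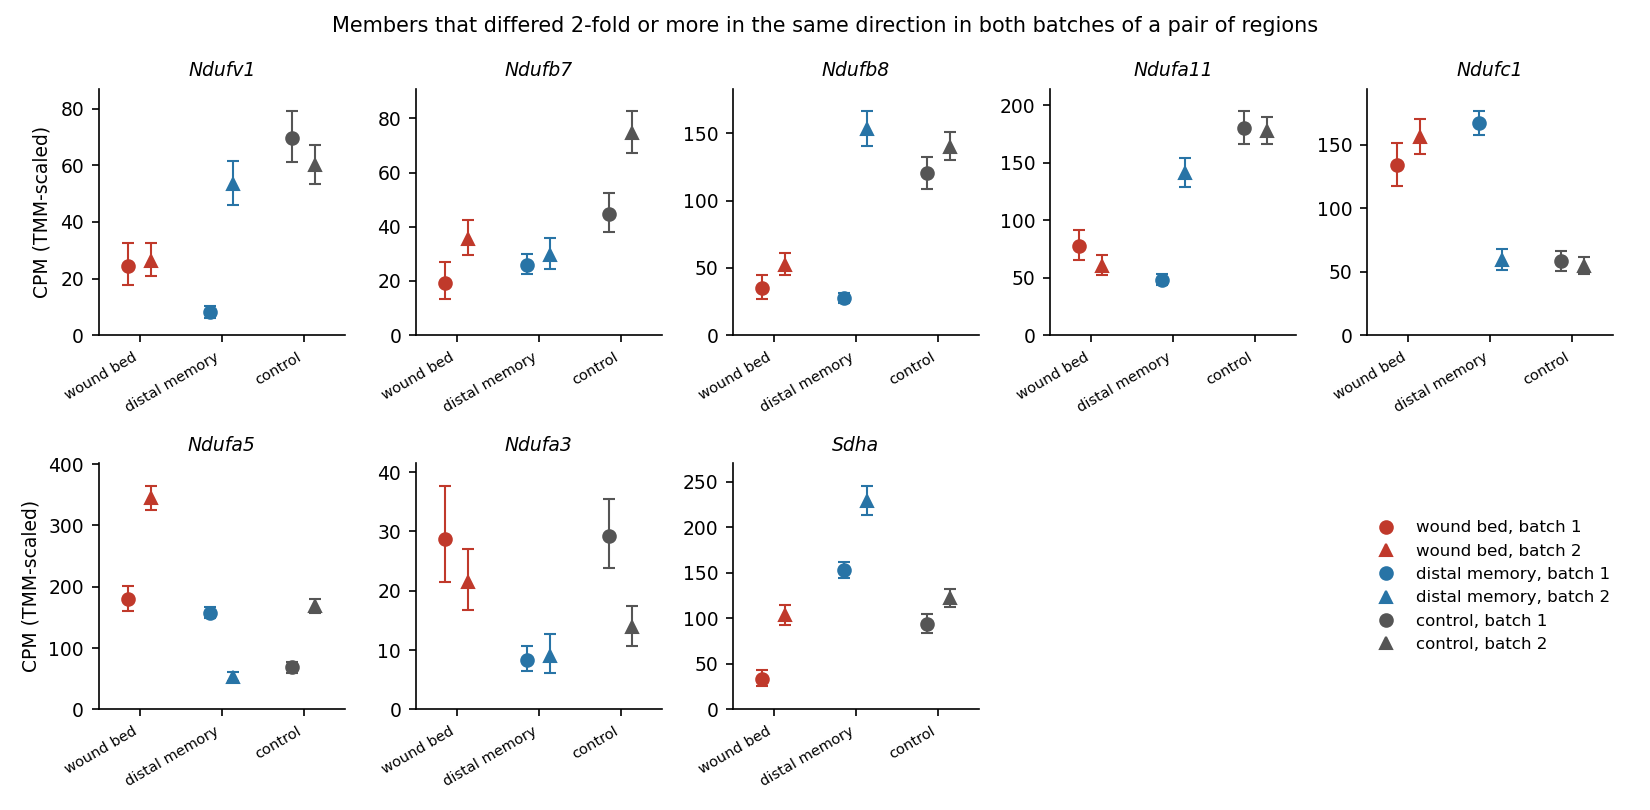
The 8 members described here that met the size rule in a pair of regions: CPM after TMM scaling (axes from 0) in wound bed, distal memory and control plates from left to right, circles for batch 1 and triangles for batch 2, with exact Poisson 95% intervals for counting error. Ndufb8 lies lower in the wound bed, at 34.8 and 52.5 CPM, than in control, at 120.2 and 140.2 CPM, while the distal memory plates of Ndufb8, Ndufa11, Ndufc1 and Ndufa5 lie far apart.

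The ratios of the batches had little in common across members. Pearson's r between batch 1 and batch 2 ratios over the 77 members was 0.19 for wound bed over control, -0.05 for distal memory over control and -0.20 for distal memory over wound bed, beside 0.15, 0.05 and 0.05 over all genes considered. Over the 778 widely detected genes r was 0.37, -0.05 and -0.08, and over the 58 members detected that widely 0.13, -0.25 and -0.43. Spearman's rho over the 77 members was 0.11, -0.09 and -0.28. These describe genes that share plates and are not independent. Differences of more than 2-fold in opposite directions in the 2 batches were seen in 3, 1 and 3 members in these pairs. Of all genes, 675 of 5776, 842 of 6356 and 896 of 6285 had them, and of the 778 widely detected genes 16, 42 and 62.

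**Figure D5:**
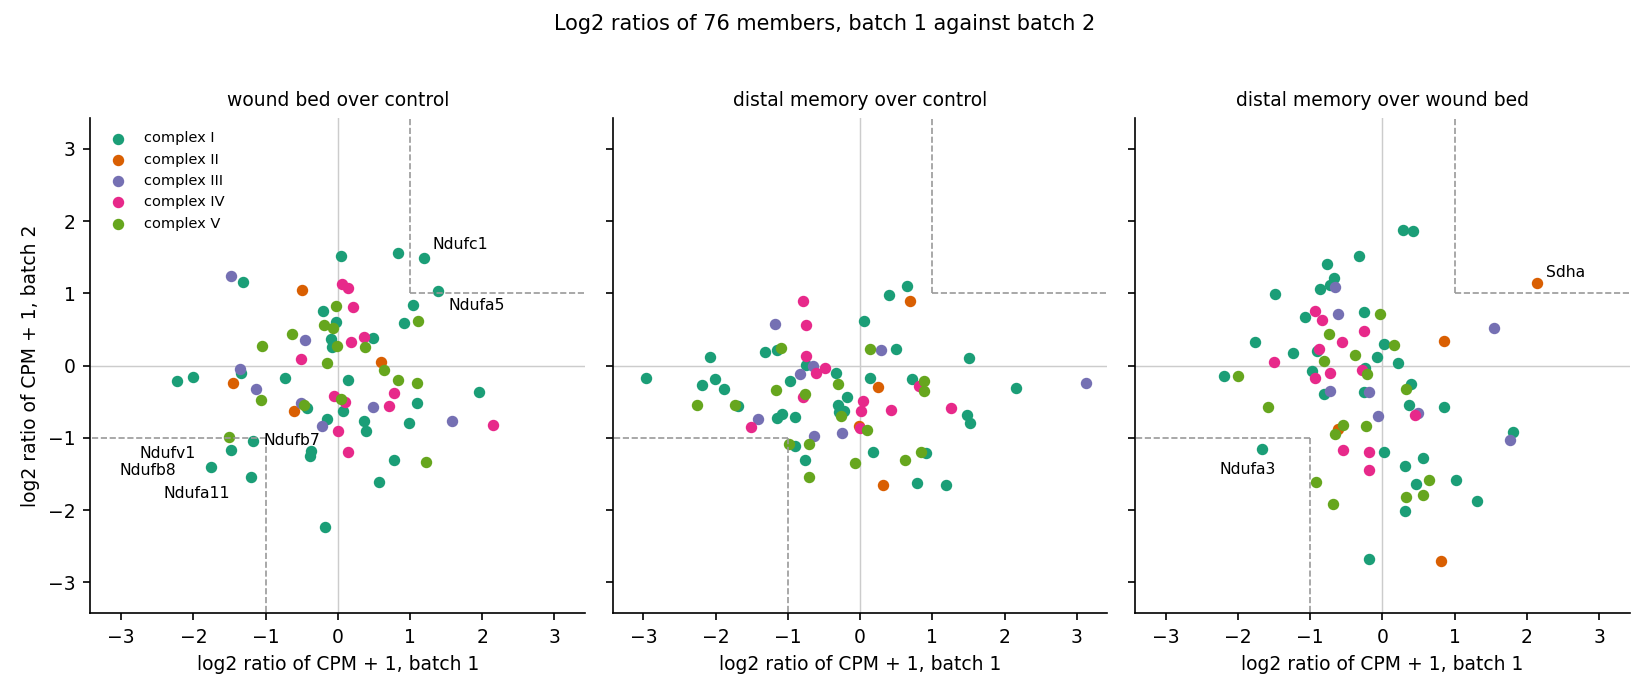
Log2 ratio of CPM plus 1 in batch 1 (x axis) and batch 2 (y axis) for 76 of the 77 members considered, 1 point each and coloured by complex, for wound bed over control, distal memory over control and distal memory over wound bed. Points within the dashed corners met the size rule and are named; the points do not line up along a diagonal (Pearson's r over all 77 0.19, -0.05 and -0.20), and in the middle panel 37 lie below 0 on both axes.

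The mitochondrially encoded partners were measured in the same cells. The 13 genes summed to 80221 and 85510.4 CPM in wound bed plates, 108483 and 70332 CPM in distal memory plates and 116912 and 122259 CPM in control plates. This was 5.66 to 7.81 times the nuclear sum. By complex, the ratio was 3.52 to 7.85 for the 7 genes of complex I and 4.37 to 10.05 for the 1 of complex III. For the 3 genes of complex IV it was 13.5 to 23.7. The 2 genes of complex V summed to only 25.2 to 91.7 CPM, 0.00748 to 0.0170 times the nuclear sum of that complex. Why these 2 were so low was not tested.

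Genes that serve the chain without being subunits were looked at from fixed lists. The lists' counts stand against the shares of all genes given above, 5.28 to 9.59% by pair and direction. Of the 27 calls made on list genes, 20 ended when 1 cell was left out, an alternative chosen after seeing the data. Of the 46 assembly factors with a row, 27 were considered between the wound bed and control, where 3 were higher by the size rule (Ndufaf4, Ttc19 and Sdhaf3) and 1 lower (Coa6, whose batch 1 ratio was 0.08 without 1 control cell). Between distal memory and control cells, 22 were considered, with 1 higher (Ttc19) and 2 lower (Ndufaf3 and Acad9), and between distal memory and wound bed cells, 26, with 1 higher (Lrpprc) and 3 lower (Ndufaf1, Ndufaf4 and Coa5). Ttc19, a complex III factor, had 40.9 and 76.4 CPM in wound bed cells, 45.6 and 22.1 CPM in distal memory cells and 10.8 and 7.001 CPM in control cells, and few cells had a read, 3 and 9, 7 and 8, and 3 and 3 in these plates. Of the 13 tricarboxylic acid cycle genes, all considered, Idh3a (1.55 and 1.31) and Suclg2 (1.99 and 2.04) were higher in the wound bed than in control, and none met the rule in the other 2 pairs. Without 1 wound bed cell the batch 2 ratio of Idh3a was 0.53, while no single cell ended the Suclg2 call.

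Among the 15 electron carrier genes, 8, 8 and 9 were considered in the 3 pairs. Etfb, a subunit of the electron transfer flavoprotein, was lower in the wound bed, with 11.6 and 15.7 CPM in wound bed cells and 53.3 and 59.01 CPM in control cells (-2.11 and -1.85), as was Coq8a (-1.37 and -1.46). Of the 188 Etfb reads in control batch 1, 153 came from 1 cell, and without it the batch 1 ratio was 0.08. Etfa, its partner subunit, was lower in distal memory cells, with 40.5 and 74.1 CPM against 225 and 179.6 CPM in control cells (-2.45 and -1.27), as was Coq2, of ubiquinone synthesis (-1.53 and -1.70). No single cell ended the Etfa call. Etfdh (2.86 and 1.53) was higher there, with a batch 2 ratio of 0.46 without 1 distal memory cell. Dhodh also met the rule, with 96 and 69 reads in distal memory cells and 0 and 22 reads in control cells, the 22 from 1 cell, so its batch 1 ratio depends on the pseudocount and is not given. None met the rule between distal memory and wound bed cells.

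Of the 12 regulators, 5, 6 and 6 were considered. Tfam, which packages and transcribes mitochondrial DNA, had 6.08 and 11.5 CPM in wound bed cells, 112 and 141 CPM in distal memory cells and 31.5 and 57.01 CPM in control cells. It met the rule in all 3 pairs, lower in wound bed than control (-2.20 and -2.22) and higher in distal memory than control (1.799 and 1.30) and wound bed cells (3.995 and 3.51). In the distal memory plates, however, 691 of 847 and 444 of 500 reads came from 1 cell each, and reads were found in 12 of 32 and 8 of 49 distal memory cells. Without the top cell of batch 2, the batch 2 ratio to control was -1.65, the opposite sign, and without 1 control cell the batch 1 ratio of wound bed over control was 0.20. Nrf1, whose motif is shown above, had 17.3 and 29.7 CPM in distal memory cells, 3.87 and 5.13 CPM in wound bed cells and 2.84 and 11.6 CPM in control cells and was higher in distal memory cells than in both others. Gabpb1 was higher (1.75 and 2.87) in distal memory than control cells, Gabpa lower (-1.42 and -1.55) in wound bed than control cells, and Tfb2m lower (-1.81 and -2.96) in distal memory than wound bed cells. Each of these 3 calls, and that of Nrf1 against control, ended without 1 cell. Among list genes, some passed the 10% detection filter in 1 or both batches only through the region where they were higher. These were Ndufaf4, Ttc19, Sdhaf3, Coa6, Lrpprc, Dhodh, Coq8a, Nrf1, Gabpb1 and Tfb2m, and the filter favoured their calls. In batch 2, Nrf1 had reads in 8 of 49 distal memory, 3 of 56 control and 4 of 55 wound bed cells.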

How the data were processed

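The 250 cells were sequenced by Smart-Seq2. The deposited values are whole counts per gene and cell, which the authors placed in 1 table for all cells. Per the submitters' processing notes, Salmon 0.13.1, Seurat and R 4.0.3 were used with mm10 (GRCm38); their roles, and how estimates became whole counts, are not given in the sources used here. No strand setting is given, so reads of a member and of an overlapping antisense gene, or of near-identical copies, cannot be told apart.

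From these, counts were summed per plate and scaled over the 6 plates by TMM (edgeR 4.0.16, R 4.3.3). The log2 ratio used a pseudocount of 1 CPM. No test was run, since no animal is named and a region is then 1 sample. Intervals are exact 95% (Poisson for sums, Clopper-Pearson for shares) and cover counting error only. The scripts were tested on simulated counts. Cells held 3857 to 3119120 reads, and all were kept; doublets were not searched for. A member that entered the counts and sums is not reported here by itself.

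Genes are named where they met the size rule (up to 8 per direction and pair), were among the 3 highest per length in a complex or found in under 5% of cells, were core subunits, or were list genes that met the size rule; others are said to be chosen after their values were seen. The members and lists were chosen with earlier results of these data known. Alternatives were total counts, DESeq2 1.42.0 size factors, other library contents, cell weights, thinning to 10000 reads, cell filters, pseudocounts and detection filters. Leaving out cells rich in predicted genes, single cells or leading members, and the widely detected background, were chosen after seeing the data. Coordinates and lengths are of GENCODE M21 (GRCm38), matched by symbol for 81 members and by an older symbol for 1, and promoters are of RefSeq.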

Additional observations from a re-analysis of the deposited data

Results flagged for a closer look

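Rows left out by name were flagged at 3 or more reads in each plate of a region and values above control in both batches. Of these 8 rows, 3 were flagged. Above control in both batches were 27.3% of all genes considered for the wound bed and 26.7% for distal memory. Ndufa4l2 had 119 and 105 reads in wound bed cells, 183 and 25 reads in distal memory cells and 0 and 16 reads in control cells. Its mean log2 ratio was 4.51 for wound bed over control (6.06 and 2.96) and 2.80 for distal memory over control (4.65 and 0.94). Control batch 1 had no read, so the batch 1 ratios depend on the pseudocount and are not bounds. Ndufb1-ps had 905 and 1598 reads in wound bed cells and 1606 and 1261 reads in control cells, with a mean log2 ratio of 0.53 (0.14 and 0.93) after scaling. Atp5l2-ps had 3 and 3 reads in distal memory cells and 1 and 3 reads in control cells, with a mean log2 ratio of 0.16, at counts too low to order. No difference was tested.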

How the results depend on the processing

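Values here are means of the 2 batches for ratios, or counts of members meeting the size rule. No paired analysis was possible because no test was run, though ratios were taken between plates of the same batch. Members lower in distal memory than control numbered 1, against 3 with total counts, DESeq2 size factors, cells weighted equally or cells rich in predicted genes left out, 2 with predicted genes left out, thinning, cells over 500000 reads left out or cells of at least 2000 genes, and 5 in cells with more basal than suprabasal reads; 1 was higher in cells of at least 2000 genes and without cells rich in predicted genes. In distal memory over wound bed, 4 were lower with total counts, 3 without cells over 500000 reads, 2 with DESeq2, predicted genes left out, equal weights, thinning or basal cells, and 0 with a pseudocount of 5 or without cells rich in predicted genes; 1 was higher with total counts, thinning or without cells over 500000 reads. In wound bed over control, 1 was higher with thinning or basal cells and 0 in cells of at least 2000 genes. Without cells rich in predicted genes, 4 of 77 were higher, beside 11.9% of all genes. Of all genes, 4.56 to 6.78% were lower over the 14 alternatives in distal memory over control and 3.98 to 7.70% over wound bed. The share higher was 4.11 to 12.3% and 5.17 to 16.4% in these pairs, and 4.95 to 11.9% in wound bed over control. The 5 lower in basal cells were of 76 members, beside 6.19% of all genes. Medians in distal memory over wound bed were -0.41 with total counts, -0.082 with equal weights, -0.013 in cells of at least 2000 genes and -0.11 without cells rich in predicted genes. Other medians that moved were -0.40 (at least 2000 genes) and -0.27 (basal cells) in wound bed over control, and -0.47 (basal cells) in distal memory over control. Sums of all members moved to 0.036 (thinning) in wound bed over control, and to -0.48 (without cells over 500000 reads), -0.54 (basal cells) and -0.16 (without cells rich in predicted genes) in distal memory over control. Ndufv1 reversed to 0.044 without cells rich in predicted genes. The causes were not tested. Total counts moved the median of all genes in batch 1 of wound bed over control to 0.40, from 0.03 under TMM, and the members' median there was 0.36. Of 14 alternatives, the rule was still met in 13 for Ndufb8, 12 for Ndufv1, 11 for Ndufa11 and Ndufa5, 10 for Ndufc1, Ndufa3 and Sdha, and 8 for Ndufb7. Of 186 alternatives for complex sums, 160 moved by less than the SD between batches and 26 by more. This SD is large where the batches differ and small where they are alike, so the count does not measure stability. The complex II ratio of distal memory over wound bed ran from -0.47 to 0.94 over the alternatives. Medians and sums said above to have moved were judged by the same SD.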
